A study of Mus musculus with 17 samples.

Results

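The solute carriers are membrane proteins that move sugars, amino acids, ions, metals, vitamins and nucleotide sugars into or out of cells and organelles. The genes described here carry an array symbol made of Slc, a family number, a letter and a member number, without the mitochondrial Slc25a family and without Slc8a1, Slc6a8 and Slc27a1. A gene entered when the scanner software gave a detection p-value under 0.01 to one of its probes on at least 9 of 17 arrays. This left 101 of the 294 genes with such a symbol, and 19057 genes in all had a probe with 1 symbol. Of the 101, 70 were detected on all arrays and 9 on only 9 or 10. Another 10 genes were detected on 7 or 8 arrays and were left out, among them Slc1a2, Slc7a2 and Slc12a1, and 142 were detected on none.

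The tissue was LV (left ventricular) free wall away from the infarct, from female C57/BL6 mice, 8 to 10 weeks old at the start and killed at week 4, and its RNA was read on Illumina mouse bead arrays. Sham mice (n = 6) had the chest and pericardium opened without ligation, and MI mice (n = 6) had the left anterior descending coronary artery ligated and received vehicle. MI+Val mice (n = 5) had the same ligation and drank valsartan, which blocks angiotensin II at its type 1 receptor, at 1 mg/kg/day. The labels name no altered allele, the infarcted mice had been selected for an ejection fraction of 35 to 45% the day after surgery, and each array held the RNA of 1 mouse. An array had a median bead signal of 90 to 120.3 and between 13929 and 15206 probes with a detection p-value under 0.01. The groups were spread unevenly over 3 chips. Of the MI mice, 4 were on the first chip, with 1 sham and 1 MI+Val mouse beside them. The second chip had 3 sham, 1 MI and 2 MI+Val mice, and the third chip 2 sham, 1 MI and 2 MI+Val mice.

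In the heart, solute carriers bring in glucose, lactate, carnitine and amino acids as fuel and building material, and exchange sodium, protons, bicarbonate, phosphate and calcium across the membrane of the cardiomyocyte. GLUT4, encoded by Slc2a4, moves to the cell surface in response to insulin and contraction. Other members sit in the Golgi, in lysosomes or in the phagosomes of macrophages, which take up debris in injured tissue. The values below are log2 of the normalized bead signal of 1 probe per gene. They measure RNA of the whole tissue piece, in which fewer cells of a type and less RNA per cell cannot be told apart. The brightness of different probes cannot be compared, so levels are compared between mice only.

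Between MI and sham mice, 9 of the 86 solute carriers bright enough to be tested changed in limma (adjusted p under 0.05, Benjamini-Hochberg over 8236 genes). This was 10.5% of the 86, against 5.63% of all genes tested. There were 6 higher in MI, where 3.31% of all genes were higher: Slc9a3, Slc1a3, Slc6a6, Slc11a1, Slc39a6 and Slc35a2. The 3 that were lower, where 2.32% of all genes were lower, were Slc2a4, Slc38a3 and Slc20a2. At an unadjusted p under 0.05, 23 of the 86 differed, 10 higher and 13 lower, which was 26.7% against 19.7% of all genes (9.76% higher and 9.93% lower). The median log2 difference of the 86 was -0.02, beside -0.01 over all genes, with 38 members above 0 and 48 below. In 5 of the 86 every MI mouse was on one side of every sham mouse, as held for 3.55% of all genes. They were Slc2a4, Slc38a3, Slc35a2 and Slc20a2 among the called members and Slc4a2 among the others. The plot of log2 differences by substrate group shows all 101 members.

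**Figure D1:**
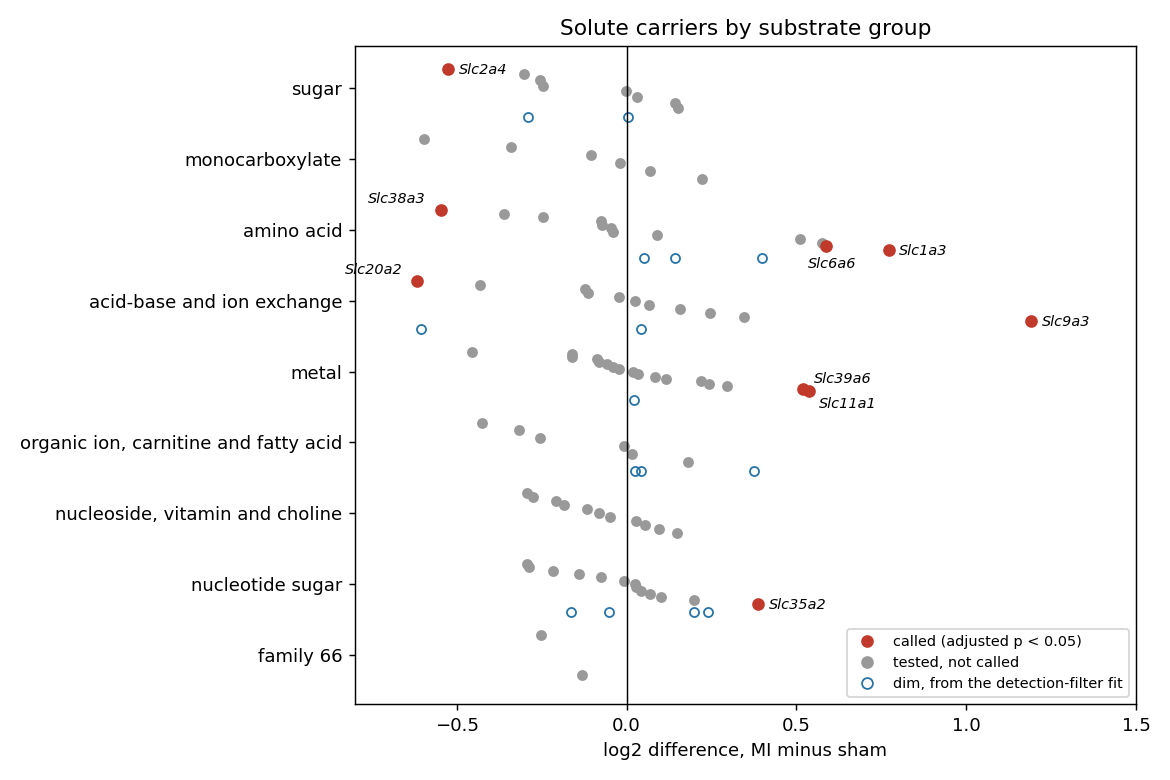
Log2 difference between the means of MI and sham mice (horizontal axis) for each solute carrier, in rows by substrate group, with the 9 members called in limma in red and labelled, the other 77 tested members in grey, and the 15 dim members, from a fit with the detection filter, as open circles. Called members lie on both sides of 0, and Slc9a3 lies farthest from it, at 1.19, on this background-corrected scale only (without the correction it was 0.49, beside 0.56 for Slc6a6).

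Among the sugar transporters, Slc2a4 was lower in MI mice. Its log2 signal was 10.89 to 11.34 (median 11.20) in the 6 sham mice and 10.34 to 10.81 (median 10.70) in the 6 MI mice. The 5 MI+Val mice had 10.54, 11.14, 10.92, 10.71 and 10.79. Every MI mouse was thus below every sham mouse, and the MI+Val mice reached from the MI range into the sham range. The MI minus sham difference was -0.53 (standard error 0.11, adjusted p = 0.00876 in limma), or 0.695 times the sham level, and Slc2a4 was called in all 17 fits that left out 1 mouse. Slc2a1, which encodes the widely expressed glucose transporter GLUT1, had mean values of 8.44 ± 0.20 (SD) for sham, 8.47 ± 0.19 for MI and 8.36 ± 0.25 for MI+Val. The 95% interval of its MI minus sham difference was -0.23 to 0.29. Slc2a8, an intracellular glucose transporter, had a difference of -0.30 (adjusted p = 0.144 in limma). A further Slc2a8 probe, detected on 12 arrays but too dim for the test, had 0.08, and the remaining probe was detected on none. No other member of the sugar group, which was set by family number, passed the test in MI vs. sham. Of the 8 tested, 4 had an unadjusted p under 0.05, all lower in MI, as 9.93% of all genes were. They were Slc2a4, Slc2a8, Slc5a6 and Slc45a4, and 2 other bright probes of Slc45a4 had differences of 0.00702 and 0.05 beside -0.26 for the one used.

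Slc5a6, which falls in the sugar group by its family number but encodes the sodium-dependent transporter of biotin and pantothenate, differed over the 3 groups in limma's F test (adjusted p = 0.0772, at a threshold of 0.10). Its values were 8.83 to 9.11 (median 8.95) in sham mice, 8.59 to 8.87 (median 8.70) in MI mice and 8.83, 8.68, 8.49, 8.54 and 8.43 in MI+Val mice. All MI+Val mice were below all sham mice, by less than the rounding in 1 case, and 0.777% of all genes had MI+Val and sham mice apart in this way. The MI minus sham difference was -0.25 (adjusted p = 0.125 in limma) and the MI+Val minus sham difference -0.37 (adjusted p = 0.234). The F test called 7 of the 86 members, against 4.8% of all genes. The other 6 were Slc2a4, Slc9a3, Slc1a3, Slc11a1, Slc38a3 and Slc35a2.

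The amino acid transporters held 3 of the 9 called members, 2 higher and 1 lower, of 12 tested. This was 25% of a small group, against 5.63% of all genes. Slc38a3 encodes SNAT3, a sodium-coupled carrier of glutamine. Its values were 8.03 to 8.78 (median 8.22) in sham, 7.55 to 8.01 (median 7.77) in MI and 8.23, 7.96, 8.11, 7.79 and 8.17 in MI+Val mice. The sham and MI ranges were narrowly apart, and the MI+Val mice spanned the gap. The MI minus sham difference was -0.55 (standard error 0.14, adjusted p = 0.0239 in limma). The call was lost in 6 of the 17 fits that left out 1 mouse, with adjusted p up to 0.0544.

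Slc1a3 encodes a glutamate and aspartate transporter best known from astrocytes. It had 5.33 to 6.50 (median 5.77) in sham, 6.01 to 7.15 (median 6.63) in MI and 6.36, 6.08, 5.98, 6.43 and 5.98 in MI+Val mice. The MI and sham ranges overlapped through the highest sham mouse and the 2 lowest MI mice. All 5 MI+Val mice were inside the sham range, but only because of that highest sham mouse, at 6.50. They were above every other sham mouse, of which the highest had 5.94. Their difference from sham was 0.36 (standard error 0.19, adjusted p = 0.716 in limma). The MI minus sham difference was 0.77 (standard error 0.19, adjusted p = 0.0199 in limma), 1.71 times the sham level.

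Slc6a6 encodes the taurine transporter, and taurine is abundant in free form in the heart. Its values were 10.54 to 11.83 (median 11.14) in sham, 11.59 to 12.02 (median 11.77) in MI and 11.31, 11.45, 11.32, 11.46 and 11.82 in MI+Val mice. The MI mice lay close together, 2 of them above all sham mice and the other 4 in the upper part of a wide sham range. The difference of 0.59 (standard error 0.17, adjusted p = 0.0469 in limma) was close to the threshold and the call was lost in 14 of the 17 fits that left out 1 mouse, with adjusted p up to 0.111.

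Slc38a2, which encodes the stress-regulated neutral amino acid carrier SNAT2, gave opposite directions with its 2 bright probes. The probe used had a MI minus sham difference of 0.51 (adjusted p = 0.168 in limma), and the brighter probe had -0.23. Slc15a3, a lysosomal carrier of peptides and histidine, had 5.61 ± 0.48 (SD) in sham and 6.19 ± 0.56 in MI mice, a difference of 0.57 (adjusted p = 0.214). The other amino acid transporters tested, among them Slc1a1, Slc38a9, Slc43a1 and Slc7a4, had differences between -0.36 and 0.09.

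**Figure D2:**
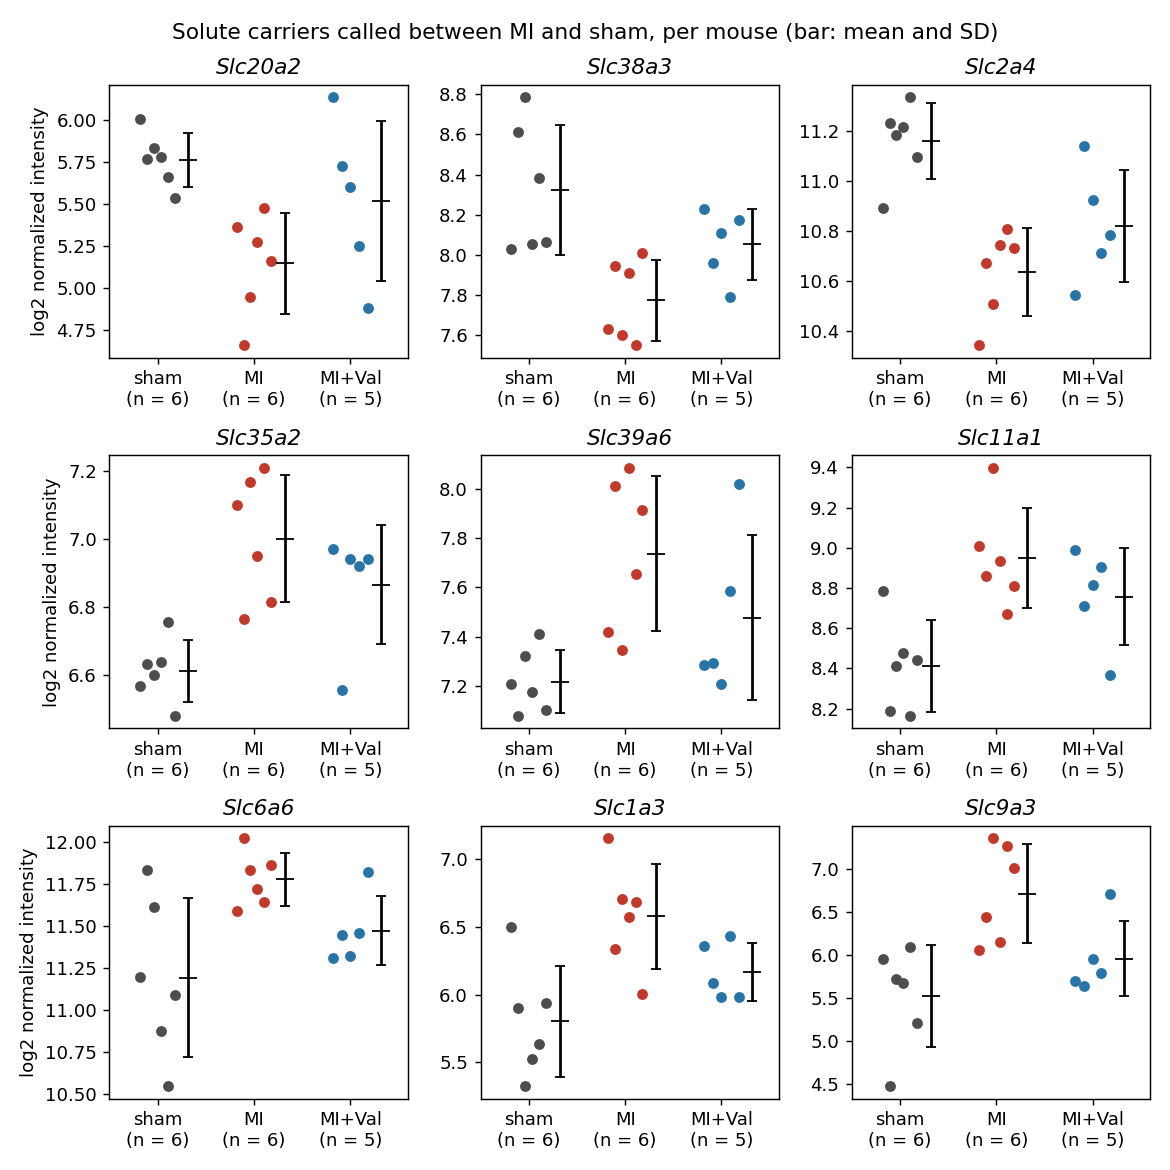
Log2 normalized bead signal (vertical axis, a different range in each panel) of the 9 solute carriers called in MI vs. sham, with 1 point per mouse for sham (grey, n = 6), MI (red, n = 6) and MI+Val (blue, n = 5) and the mean ± SD as a bar beside the points. MI and sham mice do not overlap for Slc20a2, Slc38a3, Slc2a4 and Slc35a2, and MI+Val mice overlap both other groups in every panel.

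Among the carriers of protons, phosphate, bicarbonate, chloride and other ions, 2 of 11 tested were called, 1 in each direction. This was 18.2% of a small group, against 5.63% of all genes. Slc9a3 encodes NHE3, a sodium/proton exchanger known from the brush border of kidney and intestine. Its MI minus sham difference was the largest of the 86 members after background correction, but smaller than those of Slc6a6 and Slc2a4 without it (0.56 and -0.50) and with the deposited normalized values (0.57 and -0.49). Its values were 4.48 to 6.09 (median 5.70) in sham, 6.06 to 7.35 (median 6.72) in MI and 5.69, 5.64, 5.95, 5.79 and 6.71 in MI+Val mice. The highest sham mouse was just above the lowest MI mouse, and 4 of the 5 MI+Val mice were below all MI mice. The difference was 1.19 (standard error 0.28, adjusted p = 0.0158 in limma), 2.28 times the sham level. The probe was dim. It was detected on 4 of 6 sham, 6 of 6 MI and 5 of 5 MI+Val arrays, and without background correction the difference was 0.49 (adjusted p = 0.0135).

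Slc20a2 encodes Pit2, a sodium-coupled phosphate carrier. It had 5.53 to 6.01 (median 5.78) in sham, 4.66 to 5.48 (median 5.22) in MI and 6.14, 5.73, 5.60, 5.25 and 4.88 in MI+Val mice. All MI mice were below all sham mice, whereas the MI+Val mice covered nearly the whole span of both groups. The MI minus sham difference was -0.62 (standard error 0.17, adjusted p = 0.0404 in limma). The probe was detected on 6 of 6 sham but 2 of 6 MI arrays, the difference was -0.19 without background correction (adjusted p = 0.0814), and the call was lost in 10 of the 17 fits that left out 1 mouse.

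Slc4a2, which encodes the chloride/bicarbonate exchanger AE2, had 8.45 to 8.60 (median 8.54) in sham and 8.60 to 8.88 (median 8.65) in MI mice. The ranges met without overlap, and the difference of 0.16 had an adjusted p of 0.262 in limma. Slc4a3, which encodes the exchanger AE3 of cardiac muscle, had 4 probes past the signal filter with MI minus sham differences between -0.30 and -0.11 (adjusted p = 0.718 for the one used). Slc8b1, a sodium/calcium exchanger of the inner mitochondrial membrane, had 0.24 (adjusted p = 0.191), Slc26a6, an anion exchanger, had -0.43 (adjusted p = 0.246), and Slc12a2, the sodium-potassium-chloride cotransporter NKCC1, had 0.03 (95% interval -0.19 to 0.24).

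Of 17 metal transporters tested, 2 (11.8%) were higher in MI and none was lower, where 3.31% of all genes were higher and 2.32% lower. Slc11a1 encodes NRAMP1, which carries divalent metals out of the phagosomes of macrophages. Its values were 8.16 to 8.79 (median 8.43) in sham, 8.67 to 9.40 (median 8.90) in MI and 8.99, 8.71, 8.82, 8.90 and 8.37 in MI+Val mice. The groups overlapped because the highest sham mouse was above the lowest MI mouse, and 4 of the 5 MI+Val mice were inside the MI range. The MI minus sham difference was 0.54 (standard error 0.13, adjusted p = 0.0236 in limma) with the probe used and 0.34 with the gene's other bright probe. Against sham, the MI+Val mice were at -0.02 with that other probe and at 0.35 with the one used. Against MI they were at -0.37 and -0.19. The call was lost in 3 of the 17 fits that left out 1 mouse, with adjusted p up to 0.0619.

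The listed macrophage markers were also higher in MI mice. Of 10 listed, 7 were tested, and 4 were called higher in limma (Csf1r, C1qa, Cd14 and Lyz2, at log2 differences of 0.51 to 0.77), while all 7 had an unadjusted p under 0.05. Over all genes, 3.31% were called higher and 9.76% were higher at an unadjusted p under 0.05. The summed normalized signal of the 7 markers was 2065 to 2955 in sham, 3479 to 5724 in MI and 2758 to 4038 in MI+Val mice, so that the sham and MI ranges did not overlap. Among fibroblast markers 1 of 6 was called higher (Tcf21, 0.70), with sums of 1020 to 1410 in sham and 1321 to 1699 in MI mice. All 6 had differences above 0. Of 5 cardiomyocyte markers none was called, with sums of 34812 to 40108 and 32695 to 38808. Yet 4 of the 5 were lower in MI mice, with a median of -0.24, and Myh6, at -0.43, had an unadjusted p under 0.05 in limma. Probes of high signal weigh most in a sum, and Myl2, with the highest, was at 0.04. No adipocyte or Schwann cell marker passed the signal filter, and Adipoq was detected on 1 array. The part of these cell types in the values of Slc11a1, Slc1a3 or any other solute carrier was not tested.

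Slc39a6 encodes the zinc importer ZIP6. Its values were 7.08 to 7.41 (median 7.19) in sham, 7.34 to 8.08 (median 7.78) in MI and 7.28, 7.29, 7.21, 7.58 and 8.02 in MI+Val mice. A single MI mouse lay inside the sham range, and 3 of the 5 MI+Val mice did. The difference of 0.52 (standard error 0.15, adjusted p = 0.0424 in limma) lost its call in 10 of the 17 fits that left out 1 mouse. Slc40a1, which encodes the iron exporter ferroportin, averaged 9.28 ± 0.37 (SD) for sham, 8.82 ± 0.22 for MI and 8.83 ± 0.29 for MI+Val, with a MI minus sham difference of -0.46 (adjusted p = 0.11). Slc31a1, the copper importer CTR1, had 8.63 ± 0.12 in sham and 8.85 ± 0.14 in MI mice (adjusted p = 0.155). Slc11a2, the iron importer DMT1, had a difference of -0.09 (95% interval -0.37 to 0.19).

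Of the 13 tested members of the Slc35 family, grouped as nucleotide sugar carriers by family number alone, only Slc35a2 was called. Slc35a2 encodes the carrier of UDP-galactose. Its values were 6.48 to 6.76 (median 6.62) in sham, 6.77 to 7.21 (median 7.03) in MI and 6.97, 6.56, 6.94, 6.92 and 6.94 in MI+Val mice. All MI mice were above all sham mice, if by a small gap, and 4 of the 5 MI+Val mice were too. The difference was 0.39 (standard error 0.10, adjusted p = 0.0264 in limma), 1.31 times the sham level, and was 0.20 without background correction (adjusted p = 0.0341). Its call was lost in 5 of the 17 fits that left out 1 mouse, with adjusted p up to 0.0639. The other 12 had differences between -0.29 and 0.20. Slc35c2 had -0.29 with the probe used (adjusted p = 0.225) but 0.04 and 0.06 with its other bright probes.

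No member was called among the 6 carriers of the monocarboxylate group, the 6 of organic ions, carnitine and fatty acids, the 11 of nucleosides, vitamins and choline, or in Slc66a1 and Slc66a2. Over all genes, 5.63% were called. Slc16a9, which carries carnitine in human cells, came closest. It had 5.80 to 6.33 (median 6.22) in sham, 5.14 to 6.17 (median 5.50) in MI and 5.88, 6.09, 6.39, 6.11 and 5.37 in MI+Val mice. Most MI mice were below all sham mice, but the ranges overlapped, and the difference of -0.60 had an adjusted p of 0.054 in limma. Slc22a5 encodes OCTN2, the sodium-dependent carnitine importer of the heart. It averaged 5.74 ± 0.21 (SD) for sham, 5.32 ± 0.34 for MI and 5.41 ± 0.26 for MI+Val, and its 3 probes gave MI minus sham differences of -0.43, -0.34 and -0.33 (adjusted p = 0.106 for the one used). Slc29a1, the nucleoside transporter ENT1, had -0.29 and -0.27 with its 2 probes (adjusted p = 0.233 for the one used).

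**Figure D3:**
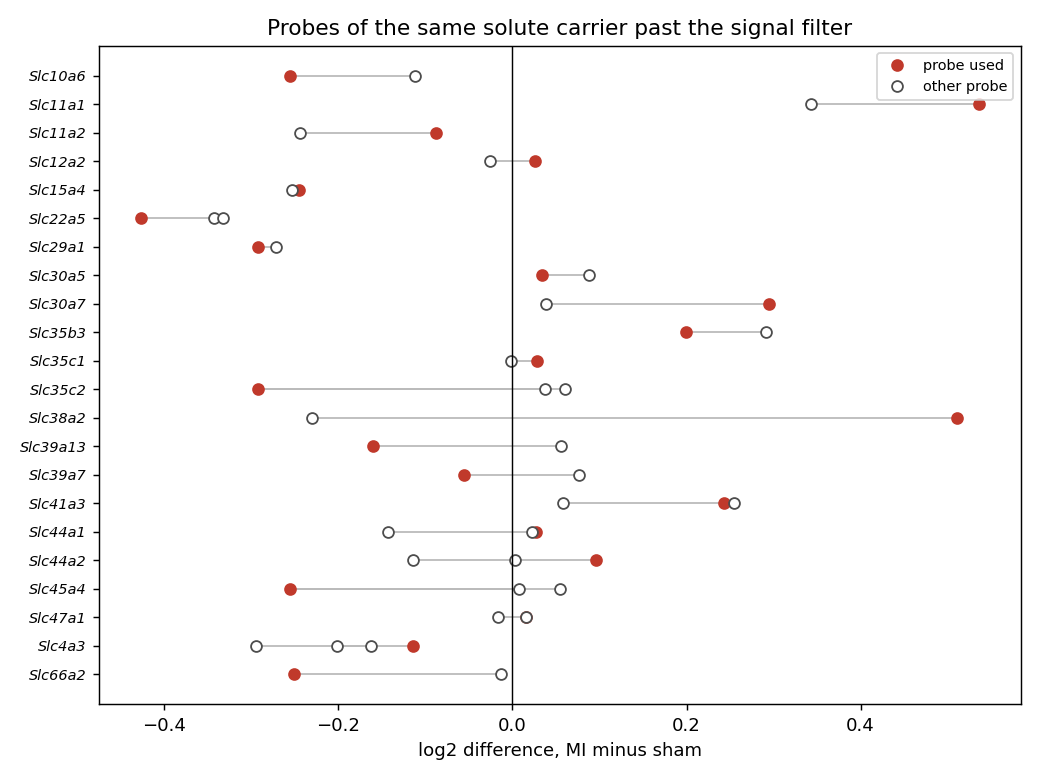
MI minus sham log2 difference (horizontal axis) of every probe past the signal filter for the 22 solute carriers with more than 1 such probe, with the probe used for the gene in red and the others open. In 10 of the 22 genes a probe lies on the opposite side of 0 from the one used, with the widest spread in Slc38a2, from -0.23 to 0.51.

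The choice of probe touched few of the called members, since Slc11a1 alone of the 9 had a further probe past the signal filter. Over the 22 members with several such probes, the probe used had the largest difference in 11. The 15 members too dim for the filter were tested in a separate fit in which a probe had to be detected on at least 9 arrays. None of the 15 was called there. Slc9a2, the sodium/proton exchanger NHE2, had -0.61 (adjusted p = 0.214 in limma) and was detected on 6 of 6 sham, 2 of 6 MI and 2 of 5 MI+Val arrays. Slc27a4, a fatty acid transport protein with acyl-CoA synthetase activity, had 0.38 (adjusted p = 0.171). The other 13 had differences between -0.29 and 0.40. In that fit 8 of the 101 members were called, against 5.19% of 8600 genes, and Slc6a6 was not among the 8.

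The calls depended on how the chip was treated. With chip as a fixed block, 1 of the 9, Slc9a3, stayed called (1.28, adjusted p = 0.0377 in limma), and all genes called fell from 464 to 187. The other 8 kept their direction with adjusted p between 0.0526 and 0.156. Slc2a4 was at -0.38 (adjusted p = 0.0622), Slc20a2 at -0.68 (0.0526), Slc39a6 at 0.55 (0.0761), Slc35a2 at 0.38 (0.0982), Slc38a3 at -0.52 (0.104), Slc6a6 at 0.61 (0.12), Slc1a3 at 0.54 (0.142) and Slc11a1 at 0.37 (0.156). The size of the differences thus moved most for Slc1a3, Slc11a1 and Slc2a4, which were smaller with the block. Within each of the 3 chips, the MI minus sham difference had the same sign for all 9, as it did for 97.4% of all called genes and 38.7% of all genes. For Slc2a4 it was -0.33, -0.40 and -0.48 on the 3 chips, and for Slc1a3 it was 0.19, 1.10 and 0.22. The shared sign is no separate test, since these genes were called on the same mice. Each chip also held only 1 mouse of either sham (the first) or MI (the others). With chip as a random block 8 of the 9 were called, beside 431 over all genes. Slc9a3, the call kept with chip as a fixed block, was one of 6 members not called by the methods' t-test with Benjamini-Hochberg adjustment (adjusted p = 0.0841).

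**Figure D4:**
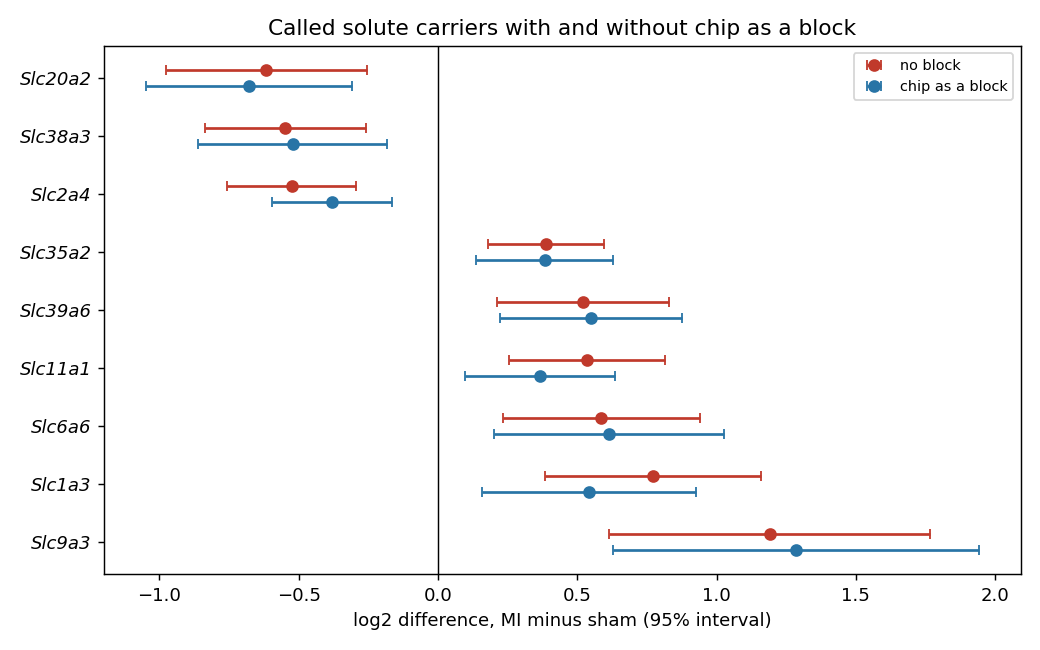
MI minus sham log2 difference with its 95% interval (horizontal axis) for the 9 called solute carriers, without a block (red) and with chip as a fixed block (blue). No interval reaches 0 in either fit, the intervals are not adjusted for the number of genes, and after adjustment only Slc9a3 was called with the block.

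A promoter sequence was found for 4 of the 9 called members, all of them among the 6 that were higher in MI. These 4 sequences are printed because they were the only ones found. They are RefSeq sequences of build GRCm38.p6, each the 250 bases before the annotated start, 5′ to 3′ on the strand of the gene. The positions are chr13:74121163-74121412 on the plus strand for Slc9a3, chr15:8710808-8711057 on the minus strand for Slc1a3, chr1:74374953-74375202 on the plus strand for Slc11a1 and chrX:7883994-7884243 on the plus strand for Slc35a2. Capitals mark exact matches, on either strand, to 8 motifs, which were the GC box GGGCGG, the CCAAT box of those letters, the TATA box TATAAA, the E-box CACGTG, the nuclear receptor motif AGGTCA, the GATA motif AGATAA, the PU.1 motif GAGGAA and the AP-1 motif TGANTCA.
Slc9a3: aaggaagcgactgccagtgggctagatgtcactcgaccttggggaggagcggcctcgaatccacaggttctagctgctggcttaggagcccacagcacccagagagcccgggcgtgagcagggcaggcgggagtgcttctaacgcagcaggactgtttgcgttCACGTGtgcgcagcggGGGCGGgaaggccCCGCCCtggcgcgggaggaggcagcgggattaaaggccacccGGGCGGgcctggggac
Slc1a3: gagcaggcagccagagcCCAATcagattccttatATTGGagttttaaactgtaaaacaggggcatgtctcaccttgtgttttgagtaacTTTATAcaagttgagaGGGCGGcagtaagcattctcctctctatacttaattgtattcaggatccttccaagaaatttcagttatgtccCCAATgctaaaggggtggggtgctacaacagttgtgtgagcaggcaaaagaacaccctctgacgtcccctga
Slc11a1: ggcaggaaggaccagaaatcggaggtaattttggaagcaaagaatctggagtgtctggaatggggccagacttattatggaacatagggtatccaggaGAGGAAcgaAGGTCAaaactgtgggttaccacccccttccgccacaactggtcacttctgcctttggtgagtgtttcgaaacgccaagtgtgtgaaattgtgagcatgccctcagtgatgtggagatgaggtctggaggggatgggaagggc
Slc35a2: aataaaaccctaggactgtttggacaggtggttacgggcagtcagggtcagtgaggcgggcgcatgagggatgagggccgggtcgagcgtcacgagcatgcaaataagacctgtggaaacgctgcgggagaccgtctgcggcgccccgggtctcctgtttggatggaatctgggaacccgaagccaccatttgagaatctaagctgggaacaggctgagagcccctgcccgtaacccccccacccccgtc

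The 4 windows had little in common in these letters. The Slc9a3 window held 3 GC boxes and 1 E-box, at 67.6% G and C. The Slc1a3 window held 3 CCAAT boxes, 1 TATA box and 1 GC box, at 44.8% G and C. The Slc11a1 window held 1 PU.1 and 1 nuclear receptor motif, and the Slc35a2 window none of the 8, and no marked matches overlapped. Of all 32851 promoter windows of this length, 32.7% held a GC box, 33.8% a CCAAT box, 12.4% a TATA box, 6.02% the E-box, 14% the nuclear receptor motif, 9.99% the GATA motif, 23.3% the PU.1 motif and 6.75% the AP-1 motif. The 102 windows of the 78 members with an entry held a GC box in 67.6%, a CCAAT box in 28.4%, a TATA box in 6.86%, the E-box in 10.8%, the nuclear receptor motif in 11.8%, the GATA motif in 4.9%, the PU.1 motif in 17.6% and the AP-1 motif in 2.94%. A match of letters does not show that a factor binds there.

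Between MI+Val and MI mice, which differed in valsartan treatment, limma called none of the 86 solute carriers (adjusted p under 0.05) and none of all 8236 genes (0%). At an unadjusted p under 0.05 there were 5, or 5.81% against 9.23% of all genes, 3 lower (4.72% of all genes) and 2 higher (4.5%) in MI+Val. No member had its MI+Val mice apart from its MI mice, as 1.12% of all genes did. The methods' t-test called none of the members after Benjamini-Hochberg adjustment and none at its own threshold, an unadjusted p under 0.01 and a fold of 1.2, which 1.86% of all genes passed. Slc29a2, which encodes the nucleoside transporter ENT2, had 4.76 to 6.24 (median 5.37) in MI mice and 4.80, 5.58, 4.43, 4.84 and 4.65 in MI+Val mice. All but 1 of the MI+Val mice were near or below the lowest MI mouse, and the difference was -0.65 (95% interval -1.14 to -0.17, adjusted p = 0.379 in limma). Its probe was detected on 5 of 6 sham and 5 of 6 MI but 1 of 5 MI+Val arrays, and its MI minus sham difference was 0.05.

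Slc9a3 had a MI+Val minus MI difference of -0.76 (95% interval -1.36 to -0.15, adjusted p = 0.413 in limma) and Slc1a3 of -0.41 (95% interval -0.82 to -0.00064, adjusted p = 0.54). Slc16a6, which exports ketone bodies from the zebrafish liver, had 4.71 to 6.35 (median 5.93) in MI mice and 6.39, 6.27, 6.23, 6.22 and 6.17 in MI+Val mice. The MI+Val mice were close together near the top of the MI range, and the difference was 0.51 (95% interval 0.04 to 0.98, adjusted p = 0.495). Its other probes, both dim, gave 0.26 and -0.03. Slc66a2 had 0.28 with the probe used (adjusted p = 0.523) and 0.06 with its other bright probe. For Slc2a4 the difference was 0.19 (95% interval -0.06 to 0.43) and for Slc6a6 it was -0.31 (95% interval -0.68 to 0.06).

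**Figure D5:**
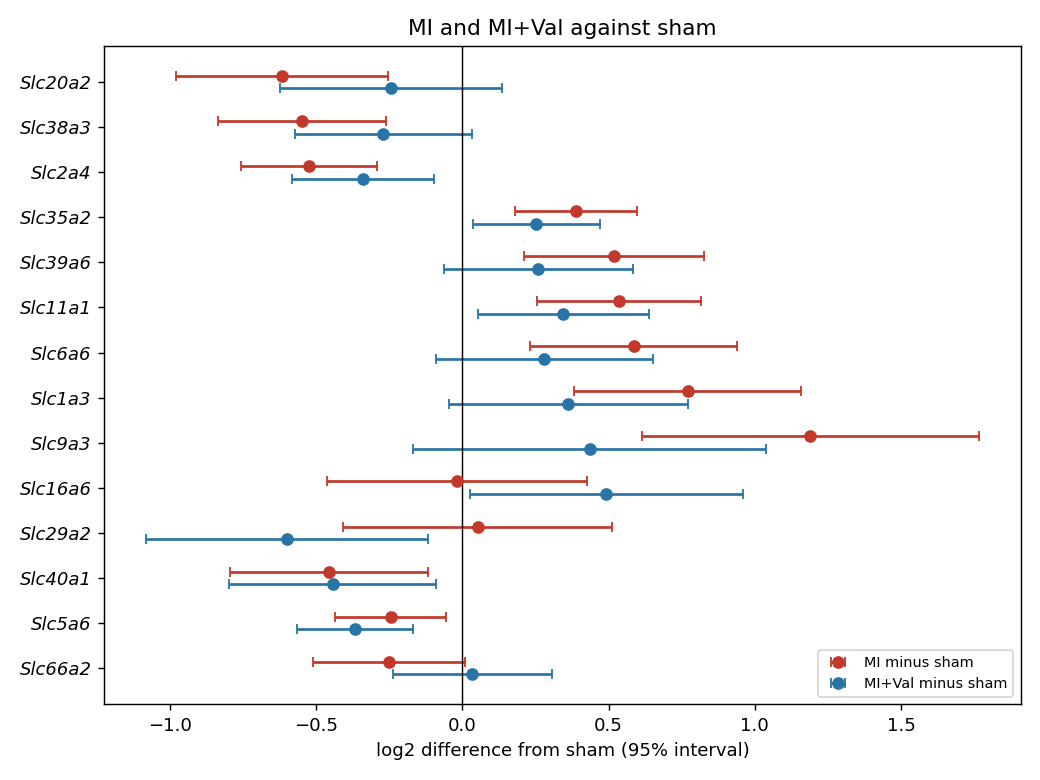
Log2 difference from sham with its 95% interval (horizontal axis) for MI (red) and MI+Val (blue) mice, for the 9 called solute carriers and for those with the 5 smallest p-values in either comparison of MI+Val mice. The sham mice are shared by both differences, and the intervals of MI and MI+Val overlap for every gene drawn.

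Against sham mice, the MI+Val mice likewise had no solute carrier past an adjusted p under 0.05 in limma, and 0.0121% of all genes were called, which is 1 gene. At an unadjusted p under 0.05 there were 10 of 86, or 11.6% against 7.25% of all genes, 4 higher (3.75% of all genes) and 6 lower (3.5%). Slc5a6, described above, had the smallest p-value. It was followed by Slc2a4, at -0.34 (95% interval -0.58 to -0.10, adjusted p = 0.443), and Slc40a1, at -0.44 (95% interval -0.80 to -0.09, adjusted p = 0.524). Next came Slc29a2, whose probe was dim, at -0.60 (95% interval -1.08 to -0.12, adjusted p = 0.524). Slc11a1 was at 0.35 (95% interval 0.05 to 0.64, adjusted p = 0.571) and Slc35a2 at 0.25 (95% interval 0.03 to 0.47, adjusted p = 0.578). The other bright probe of Slc11a1 had -0.02. The methods' t-test at an unadjusted p under 0.01 and a fold of 1.2 gave Slc16a6 as higher and Slc5a6 as lower, where it gave 1.3% of all genes, and none after adjustment.

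Of the proteins that act with solute carriers, such as Bsg, Emb, Txnip, Tbc1d1, Sgk1, Wnk1, Tfrc and the sodium pump subunit Atp1b1, 26 listed genes were tested in MI vs. sham. Fxyd1, which encodes phospholemman, the regulator of the cardiac sodium pump, was lower at -0.53 (adjusted p = 0.00299 in limma), and none was higher. Of 22 ABC transporters, the other large transporter class, Abca9 was higher at 0.46 (adjusted p = 0.0219) and Abcc9, the sulfonylurea receptor subunit of the cardiac ATP-sensitive potassium channel, was lower at -0.43 (adjusted p = 0.0191). The calls were 3.85% of the partners and 9.09% of the ABC transporters, against 5.63% of all genes. Neither of the 2 tested members of the organic anion Slco family was called. The medians were 0.0023 for the partners and -0.06 for the ABC transporters, beside -0.01 over all genes.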

How the data were processed

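RNA of 17 mice was read on 17 arrays, and labels gave group and replicate number. The authors deposited a mean bead signal for each of 45281 probes, which is an intensity not yet corrected for background or normalized, with a detection p-value. Log2 values that the authors had normalized (variance stabilization, robust splines; the submitters' processing notes name lumi and R 3.0.1) were deposited too, and served as an alternative. No 2 arrays held identical values.

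In limma 3.58.1 (R 4.3.3), background was estimated by neqc out of the detection p-values, with an offset of 16, quantile normalization and log2. Of the probes, 34885 had 1 symbol, 18 had more and 10378 had none. As in the methods, a probe with 1 symbol needed a 33rd percentile of signal of at least 125, and each of the resulting 8236 genes was represented by its probe of widest interquartile range. The methods' further filter on a probe's variation was not applied. Taking the probe of widest range favours probes with large differences, and the offset shrinks differences of dim probes. The number of arrays limits the precision. The model held the 3 groups and no covariate, and adjustment (Benjamini-Hochberg) ran over all genes tested, with thresholds of 0.05 for comparisons and 0.10 for the F test. The p-values measure the spread between these mice.

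Members were grouped by family number, and Slc66a1 and Slc66a2, which fell in no group, were kept apart. The naming rule took members called, the 20 smallest p-values of MI vs. sham, the 10 of MI+Val vs. MI, the 5 of MI+Val vs. sham, the 3 brightest of each group and members known from the heart, and any others were named after their values were seen. The members and lists were chosen with earlier results of these data known. All 101 symbols matched RefSeq, and 78 had a promoter entry. The model was checked on simulated data with independent noise and no chip effect, so that check does not bear on the uneven chips. Alternatives concerned background, normalization, filters, choice of probe, chip (fixed or random block), the replicate block, weights per array, the groups fitted, the test, and single mice left out. Figures used matplotlib 3.10.9 and Python 3.11.15.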

Additional observations from a re-analysis of the deposited data

Results flagged for a closer look

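Of 126 combinations of a named solute carrier and a group of mice, 9 had a single mouse far from the others by Dixon's test at the 95% level, where chance gives about 1 in 20. The values are log2 signals. Slc11a2 had 7.04 in MI mouse 1, against 7.64 in the nearest MI mouse. Sham mouse 3 had 5.80 for Slc16a9 (nearest 6.16) and 5.89 for Slc22a23 (nearest 6.73), an orphan of the organic ion family. MI+Val mouse 5 was low for Slc22a23, at 5.74 (nearest 6.69), and high for Slc9a3, at 6.71 (nearest 5.95). MI+Val mouse 2 had 6.56 for Slc35a2 (nearest 6.92), which is inside the sham range, while the other 4 MI+Val mice were above all sham mice. MI+Val mouse 1 had 6.81 for Slc35c2 (nearest 6.28), and MI+Val mouse 4 had 7.48 for Slc4a3 (nearest 7.79). Slc66a2 had 6.41 in MI mouse 2 (nearest 6.00). Without MI+Val mouse 5, 10 members were called in MI vs. sham in place of 9, with Slc16a9 added, and 487 of all genes in place of 464. The MI+Val minus MI difference of Slc9a3 was still not called in that fit.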

How the results depend on the processing

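Between MI and sham mice, 6 to 10 members were called, 9 in the main analysis, under every alternative that kept all mice except chip as a fixed block and the methods' t-test with adjustment. The 6 came without a filter on dim probes, where 348 of all genes were called. The 10 came with array weights, where 576 were, beside 464 in the main analysis. Chip as a block gave 1 (1 higher, 0 lower) and an F test count of 0 in place of 7, and the adjusted t-test gave 3 (1 higher), without Slc9a3, Slc11a1, Slc1a3, Slc38a3, Slc39a6 and Slc6a6. All genes called were 187 with chip as a block and 338 with the adjusted t-test. The F test gave 2 without a filter on dim probes and 11 with array weights. The methods' t-test without adjustment gave 2 members in MI+Val vs. sham (1 higher, 1 lower), against 0. Leaving out each mouse in turn gave 4 to 10 members in MI vs. sham, 3 to 6 of them higher and 1 to 4 lower, and 2 to 9 in the F test. The low of 4 came without MI mouse 3 and without sham mouse 5, where all genes called fell from 464 to 346 and 259. The replicate number as a block gave 8 calls, without Slc6a6, beside 467 over all genes, and 5 in the F test. Of 16 same-numbered pairs of mice from different groups, 4 exceeded a residual correlation of 0.1, with a range of -0.20 to 0.43. Differently numbered pairs were not set beside them, so these values do not settle whether the numbers pair the mice. The causes of these changes were not tested.

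Differences of dim members were smaller without background correction, at 0.49 for Slc9a3, 0.32 for Slc1a3 and -0.19 for Slc20a2, and with the deposited normalized values, at 0.36, 0.23 and -0.12. None of the 9 called members changed direction under any alternative. In MI vs. sham, other members did. Of these, Slc38a2 (0.51), Slc2a8 (-0.30), Slc35c2 (-0.29) and Slc45a4 (-0.26) were away from 0 in the main analysis, with an unadjusted p under 0.05, and the rest lay between -0.12 and 0.05. Leaving out the background correction gave 0.00686 for Slc16a6, 0.035 for Slc35c2 and -0.016 for Slc47a1. Scaling to the 75th percentile gave -0.015 for Slc12a2, 0.023 for Slc16a6, -0.014 for Slc35b1 and -0.072 for Slc47a1. The deposited values gave 0.0073 for Slc16a6, 0.029 for Slc35c2 and -0.013 for Slc47a1. The detection filter, which let in another probe, gave 0.079 for Slc2a8. The brightest probe gave 0.037 for Slc35c2, -0.23 for Slc38a2, 0.00702 for Slc45a4 and -0.017 for Slc47a1. Chip as a fixed block gave 0.015 for Slc16a6, 0.069 for Slc19a2, -0.10 for Slc29a2, -0.054 for Slc2a1, -0.022 for Slc30a5 and 0.096 for Slc35b2. Chip as a random block gave 0.00363 for Slc35b2. Array weights gave 0.098 for Slc16a6, -0.018 for Slc29a2, -0.00978 for Slc35b1 and 0.044 for Slc46a3. With each mouse left out in turn the range was -0.13 to 0.036 for Slc11a2, -0.031 to 0.085 for Slc12a2, -0.18 to 0.00214 for Slc12a7, -0.14 to 0.19 for Slc16a6, -0.12 to 0.067 for Slc19a2, -0.092 to 0.21 for Slc29a2, -0.022 to 0.093 for Slc2a1, -0.020 to 0.088 for Slc30a5, -0.030 to 0.12 for Slc35a4, -0.045 to 0.088 for Slc35b1, -0.061 to 0.033 for Slc35b2, -0.19 to 0.10 for Slc46a3, -0.081 to 0.11 for Slc47a1 and -0.19 to 0.011 for Slc4a3.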
